A study of Mus musculus with 6 samples.

Results

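The 7 transcription factors Cdx1, Cdx2, Hnf4a, Hnf4g, Klf4, Klf5 and Elf3 were followed as the factors that set and keep intestinal epithelial identity. They were taken by gene name from the deposited tables, and all 7 were found among 55849 listed genes. RNA came from the descending colon of untreated mice aged 12 weeks, with 3 libraries from Muc2-/- mice and 3 from wild-type C57BL/6 mice. MUC2 is the main secreted mucin of the colon, and its loss in mice is followed by chronic colitis. The labels describe neither the mutated allele nor the number of animals behind a library, so p-values measure only the spread between these libraries. The samples are titled as crypts while the protocols describe pieces of colon, which the labels leave unsettled, and smooth muscle transcripts were found in every library. Muc2 had 757, 1021 and 942 CPM in Muc2-/- 1, 2 and 3, against 2480, 6977 and 2629 CPM in wild-type 1, 2 and 3, so that transcripts were lower without overlap but still counted in the mutant libraries (edgeR adjusted p = 0.103).

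CDX1 and CDX2 are caudal-type homeobox proteins that give the gut tube its intestinal rather than gastric character. HNF4A and HNF4G are nuclear receptors that sustain the enterocyte programme, including brush border and lipid genes. KLF4 is a zinc finger protein of differentiated surface and goblet cells, while KLF5 is its relative in the cycling crypt. ELF3 is an epithelial ETS protein needed for differentiation of the intestinal lining and known to respond to inflammatory signals. CDX2 and HNF4A are known to bind many of the same enhancers in intestinal cells.

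The 250 bases before annotated starts are shown for Elf3, the factor with the largest difference between the groups, for Cdx2, the factor with the widest spread within each group, and for both annotated starts of Hnf4a, whose transcripts are joined in one gene count. The sequences are RefSeq's on GRCm38.p6, 5′ to 3′ in the sense of the gene, and entries for 4 of the 7 factors were read. They cover chr1:135258473-135258722 on the minus strand (Elf3), chr5:147307250-147307499 on the minus strand (Cdx2), chr2:163506607-163506856 on the plus strand (first Hnf4a start) and chr2:163546905-163547154 on the plus strand (second Hnf4a start). Capitals mark every match, on either strand, to the NF-kappaB consensus or to other motifs, of which the letters TGANTCA stand for the AP-1 motif. The letters TTTATG stand for the CDX motif, which CDX1 and CDX2 share. The letters CAAAGTCC stand for the HNF4 motif. The HNF1 consensus was searched as well. The letters CCNCNCCC stand for the KLF motif. The letters CAGGAAG stand for the ETS motif, to which ELF3 belongs by family. The letters AGATAA stand for the motif of GATA factors. The letters TATAAA stand for the TATA box.
Elf3: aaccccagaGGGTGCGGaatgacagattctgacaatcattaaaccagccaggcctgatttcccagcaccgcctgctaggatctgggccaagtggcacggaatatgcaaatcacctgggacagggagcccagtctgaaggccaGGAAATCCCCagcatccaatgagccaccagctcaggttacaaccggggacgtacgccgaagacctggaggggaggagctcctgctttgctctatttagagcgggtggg
Cdx2: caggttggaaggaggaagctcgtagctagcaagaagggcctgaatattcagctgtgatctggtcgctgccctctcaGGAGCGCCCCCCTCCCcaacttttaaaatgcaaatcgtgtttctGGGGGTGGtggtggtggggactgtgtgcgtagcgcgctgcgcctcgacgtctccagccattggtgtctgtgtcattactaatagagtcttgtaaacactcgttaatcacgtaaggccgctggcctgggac
Hnf4a, first start: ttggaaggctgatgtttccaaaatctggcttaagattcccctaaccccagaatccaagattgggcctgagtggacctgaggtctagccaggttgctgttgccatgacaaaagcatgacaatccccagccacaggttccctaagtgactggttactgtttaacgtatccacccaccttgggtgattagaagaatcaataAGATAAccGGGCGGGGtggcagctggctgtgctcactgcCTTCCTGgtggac
Hnf4a, second start: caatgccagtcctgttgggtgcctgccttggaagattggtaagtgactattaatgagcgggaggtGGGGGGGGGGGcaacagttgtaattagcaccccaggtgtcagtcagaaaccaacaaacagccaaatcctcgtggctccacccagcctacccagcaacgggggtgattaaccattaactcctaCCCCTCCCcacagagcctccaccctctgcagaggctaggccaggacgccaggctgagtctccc
The Elf3 window held a match to the NF-kappaB consensus, GGAAATCCCC on the printed strand, that began at position -108 from the start. The Cdx2 window held another at position -174, which overlaps a KLF match. Of 32851 promoter windows of the same length, 7.25% held an NF-kappaB match and 45.9% a KLF match, which every window above also held. The first Hnf4a window also held an ETS match (10.8% of all windows) and a GATA match (9.99%). AP-1 (6.75% of all windows), CDX (10.8%), HNF4 (1.2%), HNF1 (0.00913%) and TATA box letters (12.4%) were in none of these 4 windows. A match describes letters and not a bound site.

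All 7 factors were transcribed in every library and passed the filter on low counts. Levels between genes are given in FPKM, the deposited unit that divides counts by gene length and library size. Elf3 stood first in each Muc2-/- library, at 354, 608 and 378 FPKM, and behind Cdx1, Klf4 or both in the wild-type libraries, at 153, 191 and 268 FPKM. Cdx1 had 268, 347 and 257 FPKM in Muc2-/- 1, 2 and 3, and 186, 234 and 338 FPKM in wild-type 1, 2 and 3. Klf4 had 326, 133 and 308 FPKM in Muc2-/-, and 137, 259 and 292 FPKM in wild-type. Among protein-coding genes the lowest rank of these 3 was percentile 97.45 (Klf4 in Muc2-/- 2).

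Hnf4a averaged 140 ± 49.2 FPKM in Muc2-/- and 153 ± 28.4 FPKM in wild-type (SD, n = 3 each). Cdx2 averaged 93.4 ± 67.4 FPKM in Muc2-/- and 66.9 ± 41.9 FPKM in wild-type. Klf5 averaged 82.6 ± 3.02 FPKM in Muc2-/- and 62.4 ± 19.4 FPKM in wild-type. Hnf4g was the lowest of the 7 in every library, at 5.48 ± 1.32 FPKM in Muc2-/- and 4.93 ± 1.16 FPKM in wild-type. In the order of mean FPKM, the ranges of neighbours overlapped in Muc2-/- from Cdx1 through Klf4, Hnf4a and Cdx2 to Klf5, so that order is not resolved. Elf3 lay wholly above Cdx1 there, and Klf5 wholly above Hnf4g. In wild-type the ranges of Cdx1, Klf4, Elf3 and Hnf4a overlapped from one neighbour to the next, Hnf4a lay wholly above Cdx2, Cdx2 and Klf5 overlapped, and Klf5 lay wholly above Hnf4g.

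Transcripts of the identity factors were then compared between mutant and wild-type colon. Of the 7 factors 0 passed an adjusted p of 0.05 in edgeR's quasi-likelihood test (Benjamini-Hochberg over 16107 genes), against 0.124% of all genes tested (0.106% higher and 0.0186% lower in Muc2-/-). At an unadjusted p under 0.05 there was 1 (Elf3, higher), against 8.23% of all genes higher and 21.0% in either direction. DESeq2 called 1 (Elf3, higher), against 4.09% of all genes higher and 11.5% in either direction. The groups did not overlap for 1 factor, again Elf3, which was higher, against 13.3% of all genes higher, 15.2% lower and 28.5% in either direction. The median log2 fold change (Muc2-/- over wild-type) of the 7 was 0.19, beside -0.01 over all genes tested and 0.61 over 14 markers of epithelial cells. Leaving out wild-type 1 brought the median of the 7 to 0.02, and leaving out Muc2-/- 2 brought it to 0.35. Dropping wild-type 1 and Muc2-/- 2 together, an alternative chosen once the data had been seen, again left 0 of 7 called by edgeR.

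**Figure D1:**
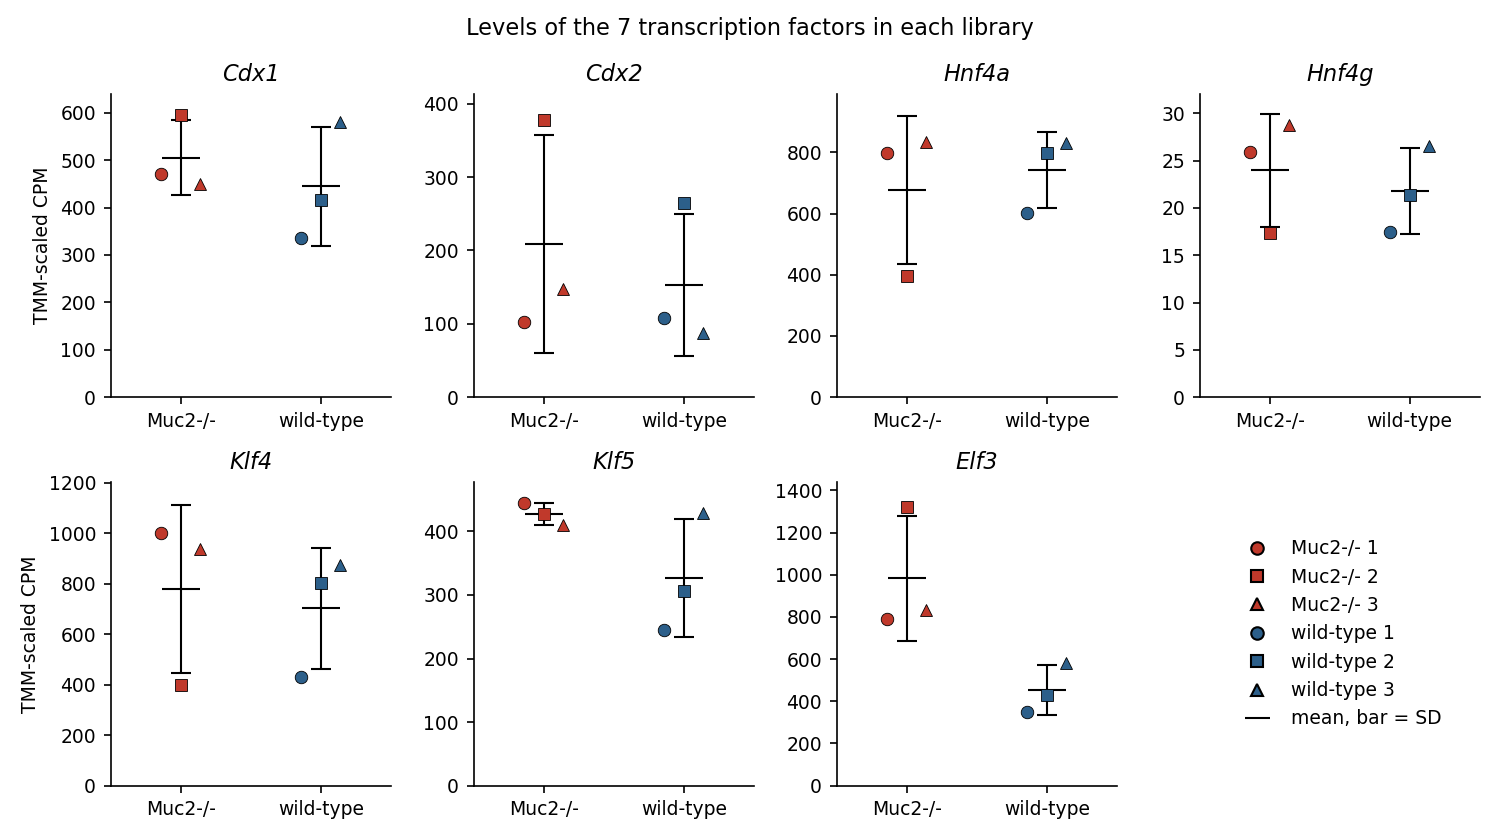
CPM scaled by TMM library factors (vertical axes, each from 0) of each transcription factor in the 3 Muc2-/- libraries (red) and the 3 wild-type libraries (blue), with group mean and SD as black marks. Elf3 is the one factor whose groups do not overlap, at 791 to 1322 CPM in Muc2-/- and 350 to 584 CPM in wild-type.

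Elf3 (ENSMUSG00000003051, chromosome 1, 135181313 to 135186306, as listed beside the counts) had 791, 1322 and 835 CPM in Muc2-/- 1, 2 and 3. In wild-type 1, 2 and 3 it had 350, 431 and 584 CPM. CPM put counts on a common library size, corrected for RNA composition by TMM. All Muc2-/- libraries lay above all wild-type libraries, with Muc2-/- 2 highest. The means were 983 ± 295 CPM in Muc2-/- and 455 ± 119 CPM in wild-type (SD, n = 3 each), a ratio of 2.16. The log2 fold change was 1.11 (SE 0.31), with an adjusted p of 0.117 in edgeR and 0.00931 in DESeq2. With single libraries left out it ran from 0.86 to 1.34, with edgeR adjusted p from 0.0591 to 0.326. It was 0.40 with the mean log2 CPM of the epithelial markers as a covariate (edgeR adjusted p = 1.000), 0.68 with that of smooth muscle markers (0.970) and 0.68 without wild-type 1 and Muc2-/- 2 (0.218). The antisense transcript Gm26642 overlaps Elf3 and held 2 to 25 counts per library, and the strand setting of the counting was not given, so reads of both cannot be told apart.

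Among the KLF pair, Klf5 (ENSMUSG00000005148, chromosome 14, 99536127 to 99552472) had 444, 427 and 411 CPM in Muc2-/- and 245, 306 and 428 CPM in wild-type. The Muc2-/- libraries lay close together and wild-type 3 fell among them, so the groups overlapped. The log2 fold change was 0.39 (SE 0.25, edgeR adjusted p = 0.411), 0.22 without wild-type 1 and 0.64 without wild-type 3. Klf4 (ENSMUSG00000003032, chromosome 4, 55527143 to 55532466) had 1002, 397 and 937 CPM in Muc2-/- and 430, 804 and 874 CPM in wild-type. One library of each group, Muc2-/- 2 and wild-type 1, lay low, and the other 4 lay at 804 CPM or above. Its log2 fold change was 0.15 (SE 0.42, edgeR adjusted p = 0.873), and 0.48 without Muc2-/- 2.

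Of the caudal factors, Cdx1 (ENSMUSG00000024619, chromosome 18, 61151934 to 61169271) had 472, 596 and 449 CPM in Muc2-/- and 336, 416 and 581 CPM in wild-type. The groups overlapped through wild-type 3, and the log2 fold change was 0.19 (SE 0.27, edgeR adjusted p = 0.733), 0.018 without wild-type 1 and 0.43 without wild-type 3. Cdx2 (ENSMUSG00000029646, chromosome 5, 147237615 to 147244080) had 102, 378 and 147 CPM in Muc2-/- and 108, 264 and 87.4 CPM in wild-type. The library numbered 2 was the high one in each group, and the others lay between 87.4 and 147 CPM. Its coefficient of variation was 70.9% in Muc2-/- and 63.2% in wild-type, beside medians of 20.04% and 14.42% over the 7350 tested genes that averaged 20 CPM or more. The log2 fold change of Cdx2 was 0.45 (SE 0.57, edgeR adjusted p = 0.693), -0.27 without Muc2-/- 2 and 1.10 without wild-type 2.

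Of the nuclear receptors, Hnf4a (ENSMUSG00000017950, chromosome 2, 163348728 to 163414830) had 799, 397 and 833 CPM in Muc2-/- and 602, 799 and 831 CPM in wild-type. Muc2-/- 2 was the lowest of all 6 libraries, and the groups overlapped. The log2 fold change was -0.14 (SE 0.33, edgeR adjusted p = 0.849), and 0.16 without Muc2-/- 2. Hnf4g (ENSMUSG00000017688, chromosome 3, 3573084 to 3724860) had 25.9, 17.3 and 28.7 CPM in Muc2-/- and 17.4, 21.3 and 26.6 CPM in wild-type. Its groups overlapped as well, with a log2 fold change of 0.14 (SE 0.26, edgeR adjusted p = 0.805). Hnf4aos, antisense to Hnf4a, held 0 or 1 counts per library.

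**Figure D2:**
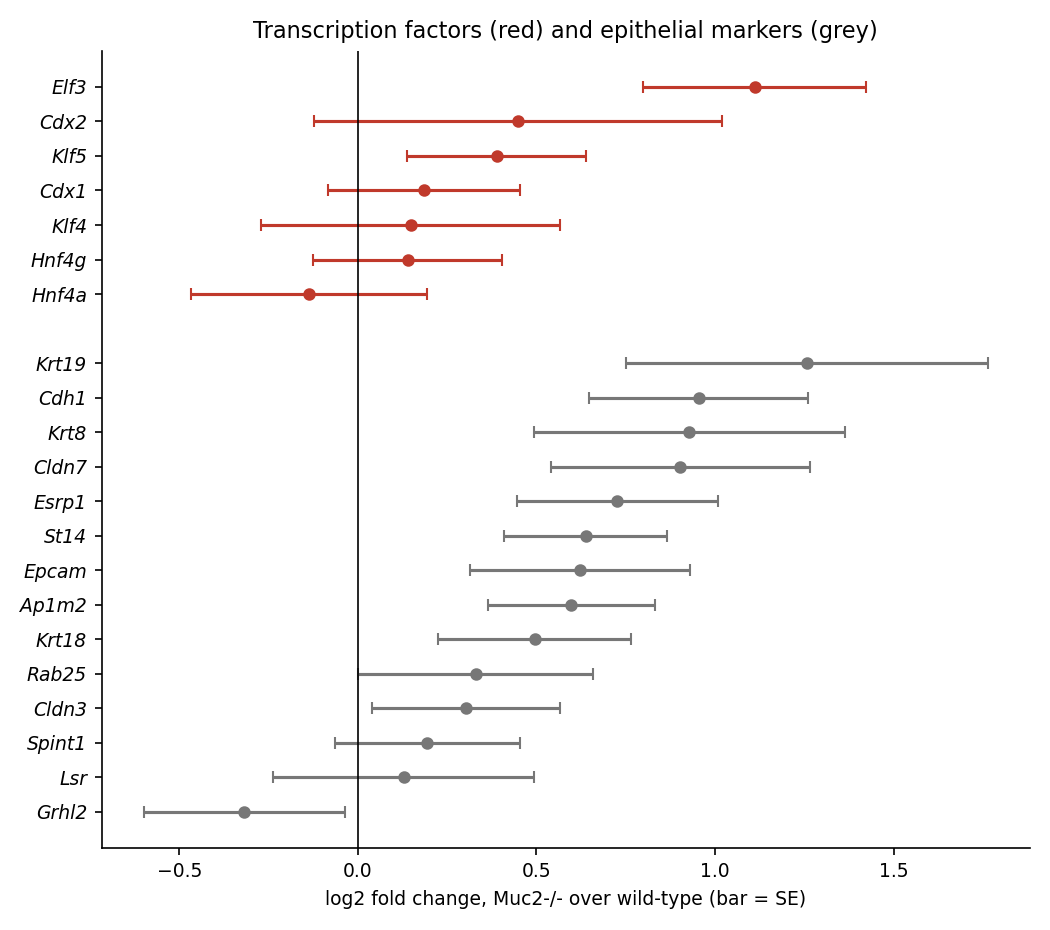
Log2 fold change of Muc2-/- over wild-type (horizontal axis, bars are SE of the edgeR fit) for the 7 transcription factors (red) and 14 epithelial marker genes (grey), each row a gene. Elf3 at 1.11 lies among the higher epithelial markers, and the other 6 factors lie between -0.14 and 0.45.

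Markers of epithelium and of muscle differed in level between the libraries. The summed CPM of the 14 epithelial markers (Epcam, Cdh1, keratins and others) was 22833, 38768 and 23983 in Muc2-/- 1, 2 and 3, and 10251, 15960 and 19455 in wild-type 1, 2 and 3. Of these markers 13 had a positive fold change and 0 passed in edgeR (6 unadjusted, all higher, against 8.23% of all genes). Krt8 averaged 11190 ± 2872 CPM in Muc2-/- and 5882 ± 2110 CPM in wild-type (a log2 difference of 0.93 with an edgeR adjusted p of 0.271), and Krt19 averaged 7757 ± 4046 CPM in Muc2-/- and 3245 ± 1373 CPM in wild-type (1.26, with 0.212). The 11 smooth muscle markers summed to 2783 to 5017 CPM in Muc2-/- and 6592 to 23366 CPM in wild-type. All 11 had a negative fold change (median -1.70) and 0 passed in edgeR (11 unadjusted, all lower, against 12.7% of all genes). Myh11, the smooth muscle myosin, averaged 491 ± 284 CPM in Muc2-/- and 2817 ± 1612 CPM in wild-type (-2.52, edgeR adjusted p = 0.103). DESeq2 called Krt19 (adjusted p = 0.0459) and Myh11 (0.000189) of these 3 genes. In tissue, fewer cells of a type and less RNA per cell cannot be told apart. The ratios and covariates given here rest on markers whose sums did not overlap between the groups, so they cannot separate tissue make-up from genotype. The part of the tissue make-up in the differences of the factors was not tested.

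Relative to the summed epithelial markers, 6 of the 7 factors averaged lower in Muc2-/- and Elf3 did not. The marker sum was itself higher in every Muc2-/- library, so most genes were lower on this ratio, with 56.1% of all genes tested lower without overlap, 0.956% higher without overlap and a median log2 difference of -0.93 over 15688 genes. The 3 of 7 factors that were lower without overlap (Cdx1, Hnf4a and Hnf4g) are no larger a share than that of all genes. Elf3 stood at 3.46%, 3.41% and 3.48% of the marker sum in Muc2-/- 1, 2 and 3, and at 3.42%, 2.70% and 3.00% in wild-type 1, 2 and 3. The lowest Muc2-/- library lay just below the highest wild-type library, so the groups overlapped, and the mean difference was 0.19 on the log2 scale (exact two-sided permutation test over 20 arrangements, p = 0.2), and 0.11 without wild-type 2. Cdx1 stood at 2.07%, 1.54% and 1.87% in Muc2-/-, and at 3.28%, 2.61% and 2.99% in wild-type. Its groups did not overlap, and the log2 difference was -0.70 (exact two-sided permutation test, p = 0.1, the smallest that 3 against 3 libraries allow).

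Hnf4a stood at 3.50%, 1.02% and 3.47% of the marker sum in Muc2-/-, and at 5.87%, 5.01% and 4.27% in wild-type, again without overlap. The log2 difference of Hnf4a was -1.11 (exact two-sided permutation p = 0.1), and -0.52 without Muc2-/- 2. Hnf4g stood at 0.113%, 0.0447% and 0.120% in Muc2-/- and at 0.170%, 0.134% and 0.137% in wild-type, also without overlap (-0.78, exact permutation p = 0.1, and -0.32 without Muc2-/- 2). For Klf4 (-0.81), Klf5 (-0.49) and Cdx2 (-0.52) the groups overlapped, with exact two-sided permutation p of 0.2, 0.2 and 0.4. Without Muc2-/- 2 the difference was -0.14 for Klf4 and -0.24 for Klf5, and without wild-type 2 it was -0.09 for Cdx2. Adjusted over the 7 ratios by Benjamini-Hochberg, the smallest exact permutation p was 0.233, so none passed 0.05. Krt8 and Krt19 supply most of the marker sum, and with each marker counted alike the 7 differences kept their signs.

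**Figure D3:**
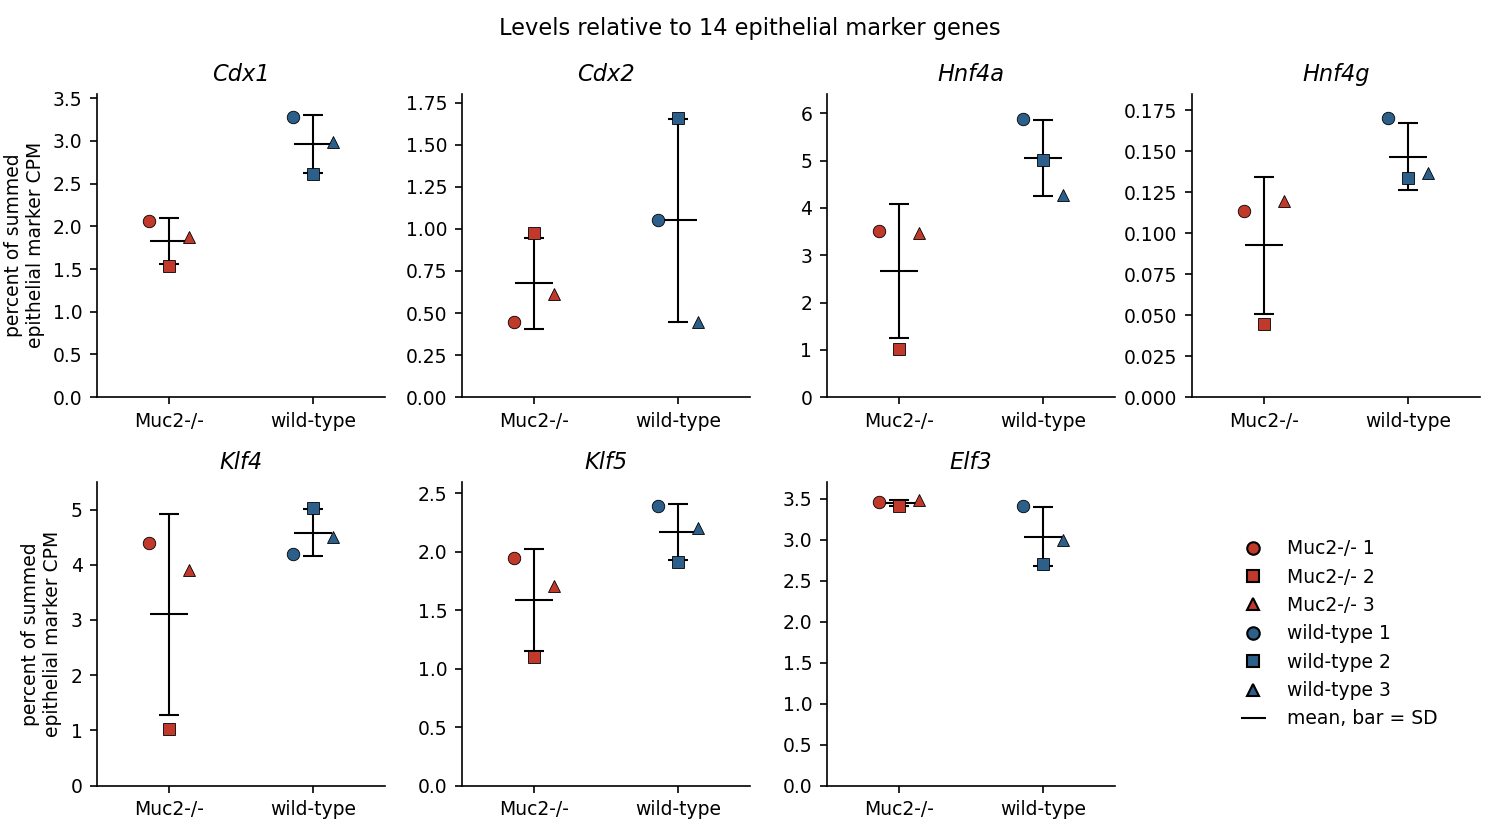
CPM of each transcription factor as a percent of the summed CPM of 14 epithelial marker genes (vertical axes, each from 0) in Muc2-/- libraries (red) and wild-type libraries (blue), with group mean and SD. Cdx1, Hnf4a and Hnf4g are lower in all 3 Muc2-/- libraries than in any wild-type library, as are 56.1% of all genes tested, while Elf3 stays between 2.70% and 3.48% in all 6.

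Ratios of related factors within a library do not depend on library scaling. The FPKM ratio of Hnf4a over Hnf4g was 28.1, 20.8 and 26.3 in Muc2-/- 1, 2 and 3, and 31.3, 34.1 and 28.4 in wild-type 1, 2 and 3. All Muc2-/- ratios lay below all wild-type ratios, by a mean of -0.33 on the log2 scale (exact two-sided permutation p = 0.1, the smallest possible, and 0.3 adjusted over 3 ratios), which was -0.20 without Muc2-/- 2. The ratio of Cdx1 over Cdx2 was 5.98, 2.04 and 3.95 in Muc2-/-, and 4.03, 2.03 and 8.59 in wild-type. It was lowest in the library numbered 2 of each group, and the log2 difference was -0.18 (exact permutation p = 0.8). The ratio of Klf4 over Klf5 was 3.85, 1.58 and 3.89 in Muc2-/-, and 2.99, 4.48 and 3.48 in wild-type, with overlap (-0.33, exact permutation p = 0.7). Muc2-/- 2 was the lowest library there.

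**Figure D4:**
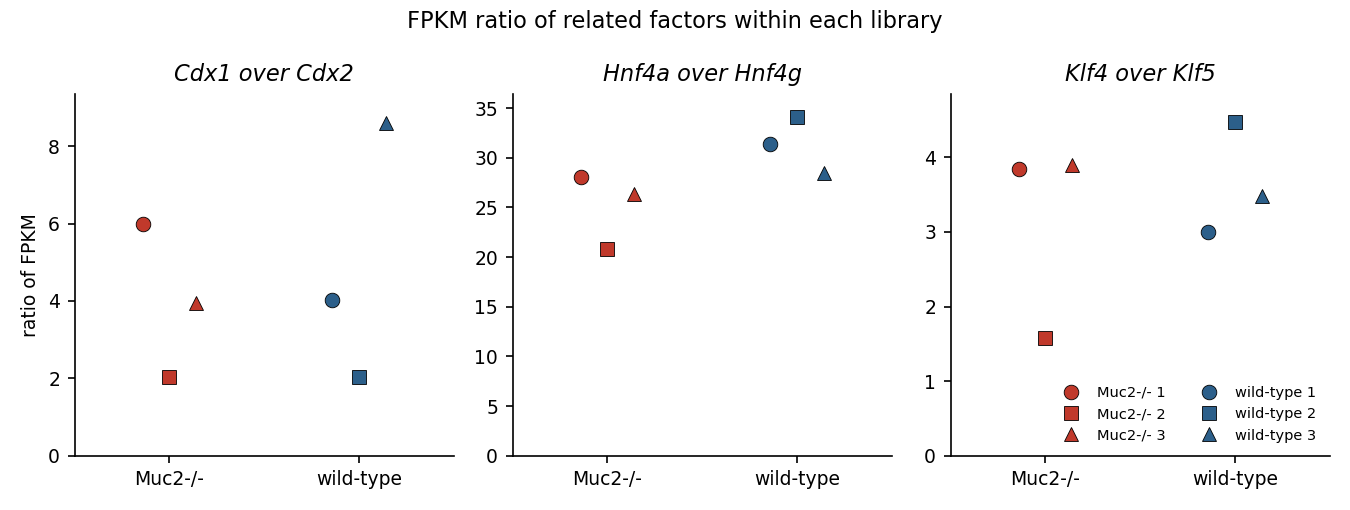
Ratio of FPKM between related factors within each library (vertical axes, each from 0) for Muc2-/- (red) and wild-type (blue), with a marker for each library. Hnf4a over Hnf4g is lower in Muc2-/- (20.8 to 28.1) than in wild-type (28.4 to 34.1), and the other ratios overlap between the groups.

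The factors did not vary as a block across the libraries, and Muc2-/- 2 departed from the other Muc2-/- libraries in both directions. Against the mean of Muc2-/- 1 and 3, its log2 CPM was higher by 1.62 for Cdx2, 0.70 for Elf3 and 0.37 for Cdx1, and about equal for Klf5 (0.00). It differed by -1.29 for Klf4, -1.04 for Hnf4a and -0.64 for Hnf4g. Mitochondrial genes took 1.04% of its counts, against 3.30% to 8.98% in the other 5 libraries. Its departure also ran with gene length over 11395 genes, with a median of 0.49 in the shortest of 10 bins of length and -0.25 in the longest. The 3 factors that were higher in Muc2-/- 2 are the shortest of the 7 (1750 to 2261 bases), and the part of length in their departure was not tested. With an offset for gene length, added after seeing the data, the log2 fold change of Elf3 was 1.06 (SE 0.30, edgeR adjusted p = 0.111).

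**Figure D5:**
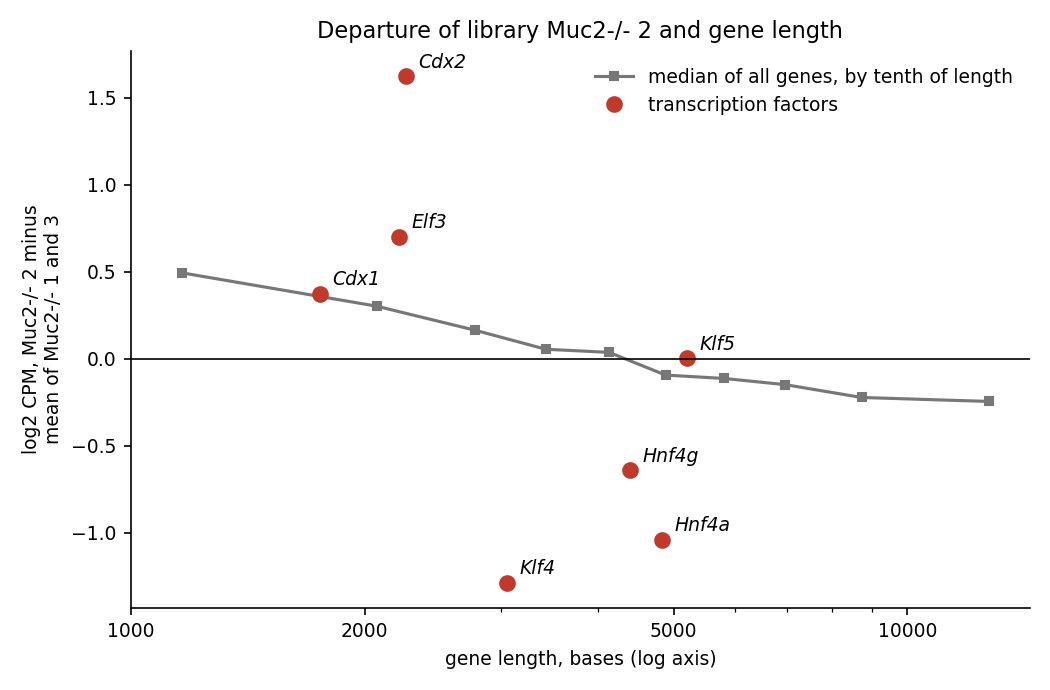
Log2 CPM of Muc2-/- 2 minus the mean of Muc2-/- 1 and 3 (vertical axis) against gene length in bases (horizontal log axis) for the 7 factors (red points) and for the median of all genes in each of 10 bins of length (grey line). Cdx2 (1.62) and Klf4 (-1.29) lie furthest from the line, which runs from 0.49 to -0.25.

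By Pearson correlation of log2 CPM over the 6 libraries, which share few degrees of freedom and many covarying genes, the genes most like each factor were read from 10762 protein-coding genes as a description. Elf3 was followed most closely by Dera and by Cdh1, the epithelial cadherin (r = 0.998 for both). Cdh1 had 1406, 2159 and 1549 CPM in Muc2-/- and 678, 862 and 1100 CPM in wild-type, the same order of libraries as Elf3. Klf4 was closest to Glyr1 (0.996) and Gdap2 (0.995), and Hnf4a to Mon2 (0.997) and Ezr (0.996), which encodes the microvillus linker ezrin. By the rank order of libraries Ezr followed Hnf4a less closely (Spearman 0.54). Hnf4g was followed closely by Luzp1 (0.994), and Klf5 was closest to Anxa11 (0.995) and Gsto1 (0.991). Cdx1 was closest to Srebf1 (0.997), a regulator of lipid synthesis, and Suclg1 (0.994). Cdx2 was closest to Bglap3 and Gorab (0.991 for both). Fabp2, an intestinal fatty acid binding protein chosen here after its values were seen, was high in the same libraries as Cdx2, with 51.1, 716 and 197 CPM in Muc2-/- and 102, 580 and 46.1 CPM in wild-type.

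Genes described as bound by or dependent on the factors were read from the same fit. Of 12 listed for CDX factors 10 were tested and 0 passed in edgeR (median log2 fold change 0.33). At an unadjusted p under 0.05, 1 was higher and 3 were lower, against 8.23% of all genes higher and 12.7% lower. The higher one was Cdh17 (0.77, edgeR adjusted p = 0.197), an intestinal cadherin. The lower ones were the anion exchanger gene Slc26a3 (-1.11, edgeR adjusted p = 0.172), the transporter gene Abcb1a (-0.84, 0.197) and the protease gene Mep1a (-0.82, 0.157), all 4 named after their values were seen. Lgals4, a lectin of enterocytes, averaged 5870 ± 497 CPM in Muc2-/- and 3432 ± 1296 CPM in wild-type (0.77, edgeR adjusted p = 0.288), and Krt20, a keratin of mature cells, averaged 2798 ± 453 CPM in Muc2-/- and 1651 ± 531 CPM in wild-type (0.76, with 0.240). Of 12 listed for HNF4 factors 9 were tested and 0 passed, with 1 higher unadjusted (median 0.20), against 8.23% of all genes. The microvillus protocadherins Cdhr5 (1039 ± 199 CPM in Muc2-/-, 820 ± 170 CPM in wild-type) and Cdhr2 (642 ± 105 CPM in Muc2-/-, 557 ± 144 CPM in wild-type) overlapped between the groups. Among 9 genes listed for KLF4 or KLF5 0 passed and 3 were higher unadjusted (median 0.53), against 8.23% of all genes. The cell cycle inhibitor Cdkn1a averaged 462 ± 111 CPM in Muc2-/- and 321 ± 62.4 CPM in wild-type. The growth factor Pdgfa averaged 93.9 ± 13.4 CPM in Muc2-/- and 75.9 ± 10.3 CPM in wild-type.

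Of 5 genes listed for ELF3 0 passed in edgeR and 2 were higher unadjusted (median 1.26), against 8.23% of all genes. Nos2, the inducible nitric oxide synthase, had 37.5, 15.5 and 105 CPM in Muc2-/- and 3.88, 2.81 and 1.24 CPM in wild-type. The groups did not overlap, and the log2 fold change was 4.32 (SE 0.76, edgeR adjusted p = 0.0886). With single libraries left out the fold change of Nos2 ran from 3.35 to 4.80 and its edgeR adjusted p from 0.0336 (without wild-type 3, the one that passed) to 0.248 (without wild-type 2), and DESeq2 called it (adjusted p = 1.31e-08). Tgfbr2, a TGF-beta receptor, had 68.9 ± 16.1 CPM in Muc2-/- and 76.5 ± 15.6 CPM in wild-type (-0.15, edgeR adjusted p = 0.762).

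CDX factors are known to restrain gastric genes in the intestine. Of 17 genes listed as gastric, 15 had too few counts in both groups to be tested, and 7 had 0 counts in all libraries. Among these 15, Muc5ac, the gastric surface mucin, and Cldn18, the gastric claudin, had 0 counts in every library of both groups. Vsig1, a junction protein of gastric glands, had 41.6, 23.5 and 52.8 CPM in Muc2-/- and 8.64, 3.49 and 10.01 CPM in wild-type, without overlap (log2 fold change 2.41, SE 0.45, edgeR adjusted p = 0.0948). With single libraries left out its edgeR adjusted p ran from 0.0263 (without wild-type 3, the one that passed) to 0.289 (without Muc2-/- 3), and DESeq2 called it (adjusted p = 2.76e-05). Ctse, which encodes cathepsin E, had 110, 40.6 and 82.4 CPM in Muc2-/- and 43.7, 32.5 and 102 CPM in wild-type (0.39, edgeR adjusted p = 0.689), with a fold change of 0.056 without Muc2-/- 1 and 1.04 without wild-type 3.

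Other factors were set beside the 7. Of 24 further transcription factors of the intestinal epithelium 20 were tested and 0 passed in edgeR (median 0.23). Unadjusted, 3 were higher and 0 lower, against 8.23% of all genes higher and 12.7% lower. These 3 were Prdm1 (2.57, edgeR adjusted p = 0.0812), Creb3l3 (2.03, with 0.0725) and Tcf7l2 (0.62, with 0.167), all without overlap. Prdm1 averaged 14.2 CPM in Muc2-/- and 2.37 CPM in wild-type, and Creb3l3 38.5 CPM in Muc2-/- and 9.42 CPM in wild-type. Ehf, which encodes an epithelial ETS relative of ELF3, overlapped between the groups at 329 ± 26.1 CPM in Muc2-/- and 344 ± 76.8 CPM in wild-type (-0.06, edgeR adjusted p = 0.901), as did the vitamin D receptor gene Vdr at 258 ± 38.2 CPM in Muc2-/- and 308 ± 101 CPM in wild-type (-0.26, with 0.641, and -0.50 without wild-type 1 and -0.023 without wild-type 3). Of 15 other Kruppel-like factor genes 12 were tested and 0 passed (median -0.38), and 3 had a positive fold change. Unadjusted, 2 were higher and 2 lower, against the same 8.23% and 12.7% of all genes. Klf6 averaged 317 ± 43.3 CPM in Muc2-/- and 174 ± 24.3 CPM in wild-type without overlap (0.87, SE 0.21, edgeR adjusted p = 0.103, called by DESeq2 at 0.00332), and Klf3 averaged 241 ± 44.7 CPM in Muc2-/- and 186 ± 44.3 CPM in wild-type with overlap (0.37, with 0.432). The 2 lower ones were Klf15 (-2.67, edgeR adjusted p = 0.0948) and Klf9 (-0.73, with 0.106), both without overlap. Klf15 was low in level, at 0.839 ± 0.247 CPM in Muc2-/- and 5.37 ± 2.37 CPM in wild-type.

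Markers of cells other than epithelium and muscle were read as sums. Goblet cell genes summed to 17565 to 26352 CPM in Muc2-/-, against 2907, 3659 and 17442 CPM in wild-type 1, 2 and 3. Wild-type 3 stood apart from the other wild-type libraries and just under the lowest Muc2-/- library, and 5 of the 8 goblet genes overlapped between the groups. Absorptive colonocyte genes gave 9668 to 12978 CPM in Muc2-/- and 7539 to 12678 CPM in wild-type, a sum of opposite directions. Of these 8 genes 3 had a positive fold change. Without overlap, Slc26a3 (-1.11) and Aqp8 (-0.62) were lower and Krt20 (0.76) higher (edgeR adjusted p = 0.172, 0.221 and 0.240). Over all genes 15.2% were lower and 13.3% higher without overlap. Stem and cycling cell genes gave 293 to 398 CPM in Muc2-/- and 274 to 310 CPM in wild-type. That sum joins opposite directions, since the stem cell genes Lgr5 (-1.31), Ascl2 (-1.57) and Smoc2 (-0.96) had negative and the cycling genes Mki67 (0.57) and Pcna (0.71) positive log2 fold changes, each without overlap and none past edgeR's threshold (adjusted p from 0.0962 to 0.179). The cycling genes were not uniform, since Top2a (0.76) and Mcm2 (-0.21) differed in sign and both overlapped between the groups. Leukocyte genes gave 1025 to 1239 CPM in Muc2-/- and 295 to 525 CPM in wild-type, a gap in the sum that rests on Jchain, since the other 7 genes summed to 254, 145 and 281 CPM in Muc2-/- and 358, 120 and 109 CPM in wild-type, with overlap. Lyz2 supplied most of that second sum. Among those 7, only Itgam was higher without overlap (log2 fold change 1.57, edgeR adjusted p = 0.121), and Cd79a had a negative fold change (-0.46). Fibroblast genes gave 577 to 768 CPM in Muc2-/- and 634 to 1253 CPM in wild-type. Endothelial genes gave 68.7 to 83.7 CPM in Muc2-/- and 74.4 to 88.4 CPM in wild-type. The endothelial sum also joins opposite directions, since of 6 genes 1 was higher and 1 lower without overlap. Enteric neuron and glia genes gave 17.7 to 43.7 CPM in Muc2-/- and 44.1 to 181 CPM in wild-type. Of all these markers Jchain, the immunoglobulin joining chain of plasma cells, was the one that passed in edgeR (log2 fold change 2.30, adjusted p = 0.0286). Its edgeR adjusted p was 0.0757 without Muc2-/- 1, 0.122 without Muc2-/- 3, 0.209 without wild-type 1 and 0.165 without wild-type 2. Their part in the values of the factors was not tested.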

How the data were processed

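Counts per gene (raw, not normalized) and FPKM were deposited by the authors for 6 libraries of polyadenylated RNA, with 16395432 to 20336459 counts each. Per the submitters' processing notes the build was mm10 and the tools were featureCounts 1.5.0-p3, HISAT2 2.0.5, DESeq2 1.20.0 and StringTie 1.3.3b, with no roles stated. Of 52081 gene identifiers shared with GENCODE M21 (GRCm38), 1494 had the same start and end, so the assembly of the listed coordinates is another than mm10 and they are left unconverted.

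Counts were tested with edgeR 4.0.16 (R 4.3.3): TMM factors, the default filter (count 10, total 15), genotype alone, Benjamini-Hochberg at 0.05. Single values used exact permutation tests. Alternatives were other factors and filters, DESeq2 1.42.0, limma 3.58.1 on voom or log2(FPKM + 1) or log2(FPKM + 0.1), a replicate block, gene subsets, marker covariates, a length offset and left-out libraries. The procedure was run on simulated counts with independent noise and no shared tissue make-up. Its recovery of differences as small as that of Elf3 is not given here. Replicates differed beyond counting noise and were kept apart.

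Members and lists were chosen with earlier results of these data known. Named genes were all 7 factors, the called genes of each list (up to 4) or otherwise the 2 with the highest mean CPM, and the 2 most correlated genes per factor. The result for 1 gene named by this rule is not reported here. Of lists for other cell types only Jchain is named by this rule. Fabp2, Muc5ac, Cldn18, Cdh17, Slc26a3, Abcb1a, Mep1a, Aqp8, Lgr5, Ascl2, Smoc2, Mki67, Pcna, Top2a, Mcm2, Lyz2, Itgam, Cd79a, Creb3l3, Prdm1, Tcf7l2, Klf15 and Klf9 were chosen after their values were seen.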

Additional observations from a re-analysis of the deposited data

How the results depend on the processing

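Of the 7 factors, 0 were called in 22 of 23 alternatives and 1 (Elf3) by DESeq2, and Elf3 was higher in Muc2-/- in all 23. The 20 genes called in all became 1852 with DESeq2, 1199 with no filter, 673 with the replicate block, 46, 3 and 4 with limma on FPKM (1 FPKM minimum, pseudocount 1, pseudocount 0.1), 13 with voom, 12 without immune receptor and mitochondrial genes, 8 with no composition factors, 0 with either marker covariate, 1 without wild-type 1 and Muc2-/- 2, and 0 (without wild-type 2) to 1226 (without wild-type 3) with single libraries left out. Calls in the lists, 1 in the main test, became 39 with DESeq2, 28 with no filter, 21 with the replicate block, 0 with limma on FPKM at either pseudocount, with either covariate or without both libraries, and 0 to 30 with single libraries left out. Same-numbered libraries deviated together with correlations of 0.094, 0.28 and 0.061, so the numbers were not taken to pair them, and the block called 0 of the factors. The muscle covariate, the length offset and the omission of both libraries were chosen after seeing the data. Either marker sum differed between the groups without overlap, so fits with a marker covariate cannot separate it from genotype. With the epithelial covariate the median of the factors was -0.19, and log2 fold changes turned to -0.43 (Cdx1), -0.33 (Cdx2), -0.10 (Hnf4g), -0.19 (Klf4), -0.12 (Klf5), -0.077 (Cdhr5), -0.25 (Cdhr2), 0.28 (Tgfbr2) and -0.058 (Ctse). With the muscle covariate the median was -0.28, and they turned to -0.28 (Cdx1), -0.43 (Hnf4g), -0.61 (Klf4), -0.13 (Klf5), -0.22 (Klf3), -0.038 (Cdkn1a), 0.030 (Tgfbr2), -0.46 (Ctse) and 0.49 (Des). With no composition factors, which put the median of all genes at -0.20, Cdx1 (-0.00062), Hnf4g (-0.028) and Klf4 (-0.0059) turned, and with the length offset Ehf (0.021). Without wild-type 1 and Muc2-/- 2, Cdx1 (-0.12), Cdx2 (-0.50), Cdhr2 (-0.11), Tgfbr2 (0.20) and the log2 ratio of Cdx1 over Cdx2 (0.22) turned. With single libraries left out the ranges that crossed 0 were -0.27 to 1.10 (Cdx2), -0.30 to 0.16 (Hnf4a), -0.0026 to 0.35 (Hnf4g), -0.11 to 0.48 (Klf4), -0.21 to 0.12 (Ehf), -0.27 to 0.055 (Tgfbr2), -0.69 to 0.34 (Cdx1 over Cdx2) and -0.54 to 0.10 (Klf4 over Klf5). The cause of these changes was not tested. With 3 libraries a group the exact test cannot go below 0.1.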
